A study of Bos taurus with 3 samples.

Results

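The interstitial collagens and the genes that fold, cleave and crosslink them were compared between cultured fetal Gonadal Ridge Epithelial-Like (GREL) cells and cultured adult ovarian fibroblasts. The genes were chosen by symbol: every collagen chain other than those of collagen IV, and a fixed set of collagen hydroxylases, chaperones, procollagen proteinases and their enhancers, and lysyl oxidases. This gave 37 genes, 20 collagen chains and 17 processing genes, of 9155 genes with a named probe set on the array. The 37 genes were read by 63 probe sets, and the probe set with the highest mean over the arrays stood for the gene. BMP1, LOXL2 and LOXL3 were not analysed here. The rule goes by symbol, so it also takes in some chains that are not interstitial, such as the basal lamina collagen COL18A1 and the transmembrane COL13A1 and COL17A1.

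RNA of 3 bovine (Bos taurus) cultures was hybridized to Affymetrix GeneChip Bovine Genome Arrays, 1 array per culture. The GREL group had 2 polygonal cell isolates, clonally enriched from dispersed fetal ovaries, and the labels give 130 days of gestation for both. The study's methods give a slightly younger age for 1 of these fetuses. The isolates were compared with a single fibroblastic culture, taken from medullar stroma of an adult animal's ovary, whose age the labels give as over 1 year. The labels describe the same medium with fetal calf serum for all cultures and name no agent given to the cells. The study's methods give a higher collagenase concentration for the adult stroma than for the fetal ovaries. The groups thus differ in cell type, age, animal, part of the ovary and way of isolation at once, and these cannot be told apart. Values below are deposited log2 values, given in the order fibroblasts, isolate 1, isolate 2 unless stated otherwise, and a difference is GREL minus fibroblasts, as the mean of both isolates. They are rounded to steps of 0.1, so a difference between 2 arrays can be off by up to 0.1. The spread was measured between the 2 isolates only, with the lone fibroblast culture assumed to vary like them.

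Interstitial collagens are the fibrous proteins that give connective tissue its strength. Their chains are hydroxylated on proline and lysine and wound into a triple helix in the endoplasmic reticulum, secreted as procollagen, trimmed at both ends outside the cell, and joined to neighbouring molecules by lysyl oxidases. In the ovary they are products of the stroma, whereas epithelial cells rest on a basal lamina built on collagen IV.

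The cultures were first checked against markers. Of 8 stromal cell markers, 6 were lower in both GREL isolates than in the fibroblasts and 0 were higher, and 2 were over 3-fold lower, the receptor PDGFRA (8.3, 6.1 and 5.5) and the transcription factor TCF21 (7.4, 3.4 and 3.2). Their summed linear signal was 5703 in the fibroblasts, 4037 in isolate 1 and 3072 in isolate 2. Among all named genes, 33.5% were lower in both isolates, 41.6% were higher in both and 2.38% were over 3-fold apart in each direction. Of 7 epithelial cell markers, 6 were higher in both isolates, 3 of them (KRT19, KRT7 and PKP2) over 3-fold. Their summed signal was 1522, 5378 and 6785 in the same order, and KRT18, at 10.4, 11.4 and 11.8, made up most of it in the fibroblasts. Of the epithelial markers, CDH1, EPCAM, KRT7 and KRT8 did not reach the background level in any culture, and neither did PDGFRB and THY1 among the stromal markers. KRT18 and KRT19 exceeded it in every culture, the fibroblasts included, and PKP2 in the isolates alone. TCF21 exceeded it in the fibroblasts alone, and PDGFRA in the fibroblasts and isolate 1. The background level was the 90th percentile of 46 genes of other organs on the same array, which was 6.1 in the fibroblasts, 5.55 in isolate 1 and 5.75 in isolate 2. None of the 5 endothelial, 5 blood, 5 granulosa and 2 germ cell markers measured exceeded it on any array. Among these the germ cell marker KIT, at 5.7, 1.5 and 2.7, was over 3-fold lower in both isolates. FOXL2, of the granulosa list, was at 1.8, 1.9 and 2.0. The study's staining placed FOXL2 protein in GREL cells of fetal ovaries as well as in granulosa cells. This marker of GREL cells thus did not exceed the background level in either isolate. Of 5 smooth muscle cell markers, 4 exceeded the background level on every array, with a summed signal of 3714, 3204 and 3188. The 2 mesothelial markers did so too, at 312, 446 and 435. In whole cultures, fewer cells of a type and less RNA per cell cannot be told apart, and the part of the cell type in the collagen values below was not tested.

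Most genes of the collagen pathway read lower in GREL cells than in the fibroblasts. The largest gaps in either direction were PCOLCE2 lower and LOXL4 higher. The LOXL4 gap is taken from a fibroblast value below the background level. Of the 37 genes, 24 were lower than the fibroblasts in both isolates by any amount, where 33.5% of all named genes were, and 9 were higher in both, where 41.6% were. Of the 24 lower genes 19 exceeded the background level on at least 1 array, and of the 9 higher genes 2, COLGALT1 and LOXL4. Among all named genes this held for 935 of 3065 lower and 1882 of 3813 higher ones. A gene can pass this filter through 1 group alone, as COL15A1 and COL27A1 did in the fibroblasts and LOXL4 in the isolates. The level also differed between the arrays, so no direction is read from this split. Over 3-fold lower in both isolates were 5 genes, where 2.38% of all named genes were. These were the collagen chains COL15A1 and COL6A1, the procollagen proteinase enhancers PCOLCE2 and PCOLCE, and the prolyl hydroxylase subunit P4HA3. Over 3-fold higher in both was 1 gene, the lysyl oxidase LOXL4, where 2.38% of all named genes were as well, a share close to that of these genes. The median log2 difference (mean of the isolates minus the fibroblasts) was -0.45 over the 37 genes and 0.05 over all named genes.

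In limma, 0 of the 37 genes passed an adjusted p under 0.05, where 0% of all probe sets did. At an unadjusted p under 0.05 there were 10 lower, where 11.1% of all named genes were, and 4 higher, where 12.8% were. In 4 of these 14 genes both isolates have 1 rounded value, so that their measured spread of 0 understates the real one. The methods' test, without the limma prior, called 0 genes of the 31 whose isolates differ, and 1 at an unadjusted p under 0.05, where 2.82% of named genes were, a share close to that of these genes. When probe sets with identical isolates were left out of the limma fit, 13 of those 31 genes passed as lower, where 7.54% of named genes did, and 2 (LOXL4 and COL18A1) as higher, where 10.3% did. That fit gave every probe set the same standard error of 0.37, so it ranks genes by the size of the difference and takes no account of how far the isolates of a gene lie apart. With a robust prior 2 genes, P4HA2 and P4HA3, passed as lower (adjusted p = 0.0452 in limma for each), where 2.61% of named genes did, and neither shows any spread between its isolates after rounding. The calls therefore depend on how identical isolates are treated, and the values of each culture are given below.

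The fibrillar collagens form the fibrils themselves. Of the 9 chains measured, 7 were lower in both isolates, where 33.5% of all named genes were. Higher in both were 2 (COL11A2 and COL2A1), where 41.6% were, and 0 were over 3-fold apart from the fibroblasts in both. The median log2 difference of the 9 chains was -1.0. Type I collagen, the main collagen of stroma, is a trimer of COL1A1 and COL1A2 chains. COL1A1 had log2 values of 9.7, 8.7 and 7.4, and the difference was -1.65 ± 0.91 (SE; limma, adjusted p = 0.433). COL1A2 read 12.0, 11.5 and 10.5, and the difference was -1.0 ± 0.70 (SE; limma, adjusted p = 0.502). For both chains the 2 GREL arrays lay below the fibroblast array, and isolate 2 lay 1.3 and 1.0 below isolate 1, so the gap between the isolates was of the size of the difference itself. On the fibroblast array the COL1A2 value is close to the highest value of any probe set, 12.3. The highest values in isolates 1 and 2 were 12.2 and 12.3, so COL1A2 was bright in the GREL cultures too.

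COL3A1, the chain of the thinner reticular fibrils, read 11.3, 10.7 and 10.2. COL5A2, a chain of the collagen V that starts fibrils and limits their width, was at 7.7, 6.7 and 5.9 in the same order. Both follow the order of the collagen I chains, with the fibroblasts highest and isolate 2 lowest, and both differences (-0.85 and -1.40) were larger than the gap between the isolates (0.5 and 0.8). In the current bovine gene table COL5A2 and COL3A1 are neighbouring genes. COL11A1, a minor fibril chain, read 8.7, 7.2 and 7.4, and the difference was -1.40 ± 0.14 (SE; limma, adjusted p = 0.198). COL27A1 read 6.9, 5.4 and 5.5, and the difference was -1.45 ± 0.07 (SE; limma, adjusted p = 0.182). In these last 2 chains the isolates lay 0.2 or less apart, and in both they were about equally far below the fibroblasts, though for COL27A1 they lay under the background level. Of the 7 fibrillar chains that were lower, only COL5A3 stayed under the background level throughout, at 2.3, 1.8 and 1.9. COL2A1 and COL11A2, chains known from cartilage, did so too, with values from 2.5 to 3.3.

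**Figure D1:**
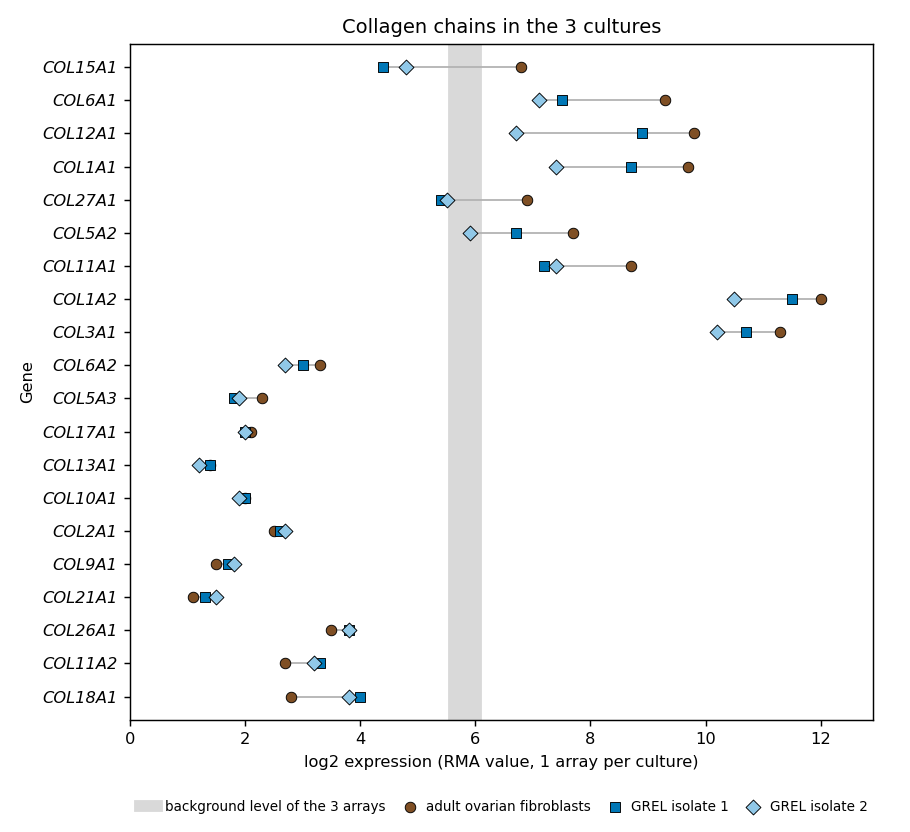
Log2 expression (x axis, 1 array for each culture) of the 20 collagen chains (rows) where circles stand for fibroblasts, squares for isolate 1 and diamonds for isolate 2, in the order of the mean difference, with the background level of the arrays as a grey band. The 7 chains above the background level on all 3 arrays have their isolates left of the fibroblasts, COL15A1 and COL27A1 reach past the level in the fibroblasts alone, and the other 11 chains stay at 4.0 or less.

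Fibril-associated collagens decorate the surface of fibrils. COL12A1 read 9.8, 8.9 and 6.7. Isolate 1 lay 0.9 below the fibroblasts and isolate 2 lay 3.1 below, and the gap of 2.2 between the isolates was the largest among the 37 genes, so the mean difference of -2.0 has a standard error of 1.53 (adjusted p = 0.540 in limma). COL9A1 and COL21A1, the other chains of this group, were at 1.8 or less on every array, below the background level.

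Among the remaining collagens, COL15A1 is a collagen of the zone just beneath basal laminas. It read 6.8, 4.4 and 4.8, which is 5.28-fold and 4.0-fold lower (difference -2.20 ± 0.28 SE; limma, adjusted p = 0.20). Both isolates lay below the background level, so the size of this difference is uncertain. COL6A1, a chain of the beaded microfibrils of collagen VI, read 9.3, 7.5 and 7.1, which is 3.48-fold and 4.59-fold lower (difference -2.0 ± 0.28 SE; limma, adjusted p = 0.206). All 3 values lay above the background level, and the isolates were closer to each other than either was to the fibroblasts. COL6A2, its partner chain and its neighbour in the current gene table, read at 3.3, 3.0 and 2.7, below the background level, so whether it follows COL6A1 cannot be read from this probe set.

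COL18A1, a basal lamina collagen and the source of endostatin, was the collagen chain with the largest difference in the other direction. It read 2.8, 4.0 and 3.8, and the difference was 1.10 ± 0.14 (SE; limma, adjusted p = 0.20), with all 3 values below the background level. COL26A1 read 3.5, 3.8 and 3.8. The other 3 chains, COL10A1 of growth plate cartilage and the transmembrane collagens COL13A1 and COL17A1, were named after their values were seen and lay between 1.2 and 2.1 on every array. They lay below the background level in all cultures.

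Collagen IV, the network of the basal lamina, was set beside the interstitial chains. Of its chains 3 were measured. COL4A1 read 6.9, 8.7 and 7.8, and COL4A4 was at 1.2, 4.4 and 2.2, while COL4A3 was at 2.3, 1.8 and 1.8. COL4A1, the only one of the 3 above the background level, was thus higher in both isolates, by 1.8 and 0.9. Whether the 2 kinds of collagen differ beyond the spread between cultures was not tested.

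The enzymes and chaperones that act on collagen chains in the endoplasmic reticulum differed less from the fibroblasts than the fibrillar chains by their medians, a gap that was not tested. Of 11 measured, 8 were lower in both isolates, where 33.5% of all named genes were, and 1 (COLGALT1) was higher, where 41.6% were. Over 3-fold lower was 1 (P4HA3) and over 3-fold higher were 0, where 2.38% of all named genes were in each direction. The median log2 difference of the 11 was -0.35. P4HA1, P4HA2 and P4HA3 are alternative catalytic subunits of prolyl 4-hydroxylase, whose product, hydroxyproline, holds the helix together. P4HA1 read 10, 8.9 and 8.6, and the difference was -1.25 ± 0.21 (SE; limma, adjusted p = 0.230). P4HA2 read 8.6, 8.1 and 8.1, and P4HA3 read 4.8, 3.0 and 3.0, 3.48-fold lower. P4HA3 stayed under the background level in every culture, so its fold is uncertain. All 3 subunits were thus lower in both isolates, with isolates no more than 0.3 apart.

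Lysyl hydroxylases prepare the lysines that are later crosslinked, and the members of this family were not alike. PLOD1, the enzyme for lysines within the helix, read 8.6, 7.1 and 6.6, and the difference was -1.75 ± 0.35 (SE; limma, adjusted p = 0.261). With -1.5 in isolate 1 it missed the 3-fold line of 1.58 by less than the rounding step, and PCOLCE passed it by less, with -1.6. PLOD2, the enzyme for lysines of the end regions, read 9.0, 9.2 and 8.7, so the fibroblasts lay between the isolates. PLOD3 was at 4.7, 4.4 and 4.6, below the background level. COLGALT1, which adds galactose to the hydroxylysines, read 6.4, 6.8 and 7.3.

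SERPINH1 (HSP47), the chaperone that binds finished triple helices, read 10.3, 10.3 and 10.1, so isolate 1 equalled the fibroblasts and isolate 2 lay 0.2 below. P3H1, CRTAP and PPIB form the prolyl 3-hydroxylase complex. P3H1, the enzyme, was at 7.4, 7.0 and 6.7, CRTAP, its partner, at 7.4, 7.1 and 7.1, and PPIB (cyclophilin B), the proline isomerase, at 10.5, 10.2 and 10.1. All 3 were lower in both isolates, by 0.3 to 0.7. SERPINH1, PPIB, P3H1, CRTAP, PLOD2, PLOD3 and COLGALT1 lie outside the rule for genes named with values and are given to account for every member of the group. PPIB also has array control probe sets along its transcript, which were not part of the tests. Their 3′ value exceeded their 5′ value by 2.1 in the fibroblasts, 1.9 in isolate 1 and 2.2 in isolate 2. The loss of signal towards the 5′ end of this transcript was thus much the same on the 3 arrays. Controls of other transcripts were not examined.

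Both procollagen proteinase enhancers were over 3-fold lower in both isolates. PCOLCE and PCOLCE2 bind the C-terminal propeptide and speed its removal. PCOLCE2 read 9.5, 6.6 and 6.2, which is 7.46-fold and 9.85-fold lower (difference -3.10 ± 0.28 SE; limma, adjusted p = 0.184). Its difference was the largest of the 37 genes, all 3 values lay above the background level, and the isolates were 0.4 apart. PCOLCE read 7.7, 6.1 and 5.6, which is 3.03-fold and 4.29-fold lower (difference -1.85 ± 0.35 SE; limma, adjusted p = 0.258). Isolate 2 lay below the background level there, so the larger fold is uncertain. ADAMTS2, which removes the N-terminal propeptide, read 1.4, 1.5 and 1.5, below the background level.

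Lysyl oxidases make the crosslinks between secreted molecules, and here the members lay on opposite sides of the fibroblasts. LOX, the founding member, read 7.3, 6.6 and 5.9, and LOXL1, known for its role in elastic fibres, was at 8.8, 8.2 and 7.5. In both genes isolate 1 lay nearly midway between the fibroblasts and isolate 2, with differences of -1.05 and -0.95 against a gap of 0.7 between the isolates. LOXL4 read 3.8, 6.4 and 6.1, which is 6.06-fold and 4.92-fold higher (difference 2.45 ± 0.21 SE; limma, adjusted p = 0.184). Both isolates lay above the background level and the fibroblasts below it, so the size of the difference is uncertain. LOXL4 was the only one of the 37 genes that reached past the level in both isolates and not in the fibroblasts.

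**Figure D2:**
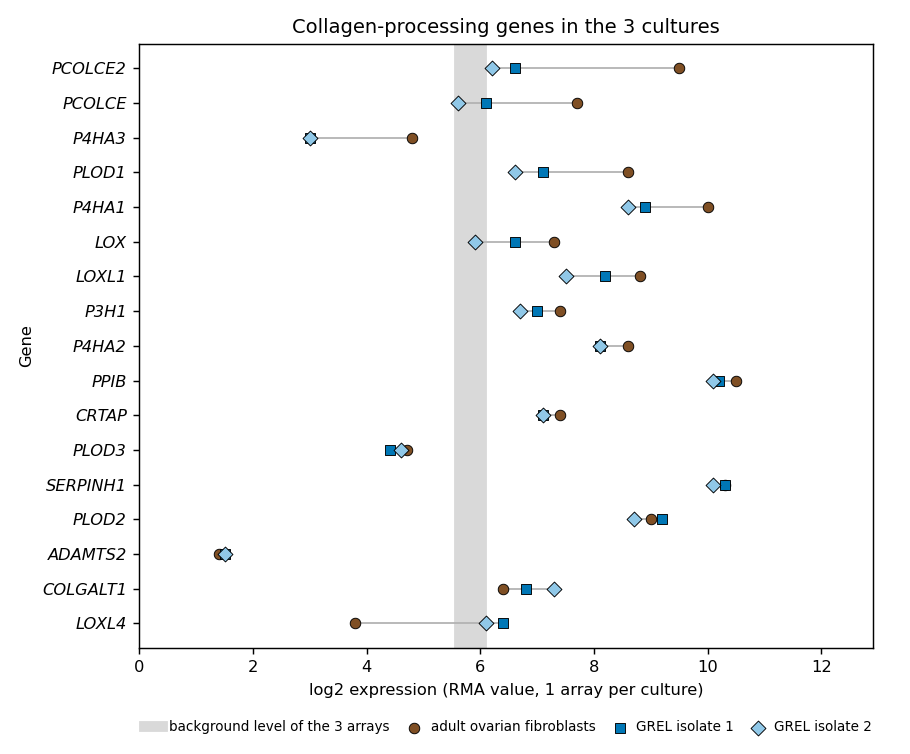
Log2 expression (x axis, 1 array for each culture) of the 17 collagen-processing genes (rows) where circles stand for fibroblasts, squares for isolate 1 and diamonds for isolate 2, in the order of the mean difference, with the background level of the arrays as a grey band. PCOLCE2 has the widest gap, from 9.5 in the fibroblasts to 6.6 and 6.2 in the isolates, and LOXL4 lies the other way, at 3.8 against 6.4 and 6.1.

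The isolates were not equal in their collagen values. Isolate 2 was lower than isolate 1 in 22 of the 37 genes, where 34.7% of all named genes were, higher in 9 and equal in 6. It was lower by 1.0 or more in 3 genes, COL12A1, COL1A1 and COL1A2, where 1.62% of all named genes were, and higher by that much in 0. The stromal cell markers lay the same way, lower in isolate 2 in 7 of 8, and this was not tested as a source of the gap. Taken alone, isolate 2 was over 3-fold lower than the fibroblasts in 9 genes, which adds COL12A1, COL1A1, COL5A2 and PLOD1, where 3.62% of all named genes were. Isolate 1 alone was so in 5 genes, where 2.74% of all named genes were. With 1 array per isolate, the gap between the isolates itself has no replicate check.

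**Figure D3:**
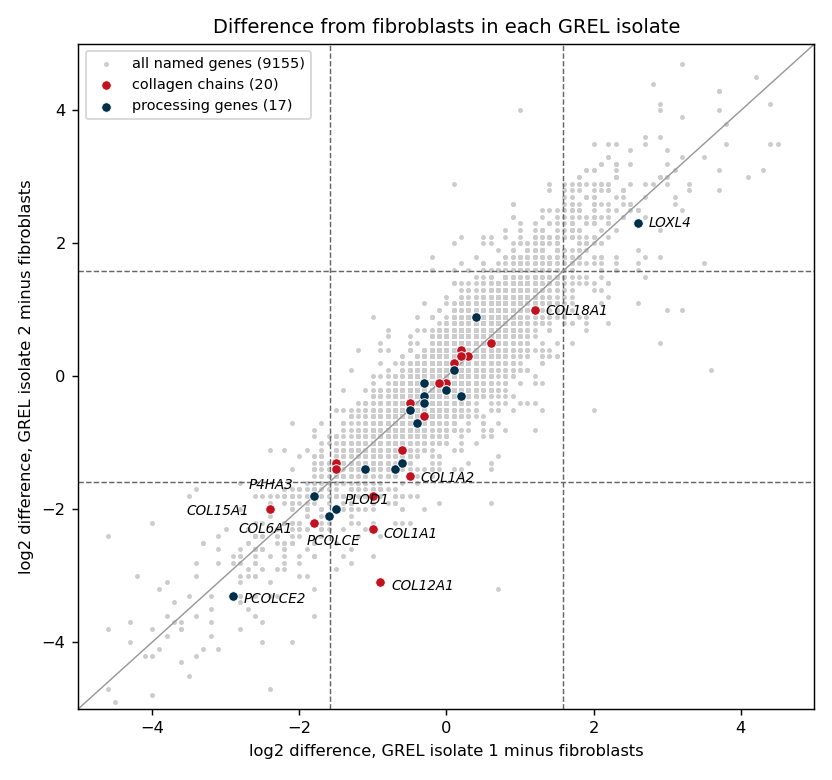
Log2 difference from the fibroblasts in GREL isolate 1 (horizontal axis) and GREL isolate 2 (vertical axis) for the 20 collagen chains (red), the 17 processing genes (dark blue) and all 9155 named genes (grey, 9 of them outside the axes). Dashed lines mark 3-fold, the solid line equal differences, and both axes share the 1 fibroblast array. COL12A1, COL1A1 and COL1A2 lie below the line of equal differences by 2.2, 1.3 and 1.0.

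Several genes were read by more than 1 probe set, which gives a second look at their values. Of the 37 genes, 17 had several probe sets and 20 had 1. COL3A1 was read by a second probe set at 10.8, 10 and 9.5, and COL1A2 by one at 8.8, 8.4 and 8.0, in the same order of cultures as the first. The second probe set of COL15A1 read 5.2, 2.7 and 2.7, and that of PCOLCE 7.1, 5.0 and 4.7, with differences (-2.50 and -2.25) larger than those of the first. That of COL15A1 lay below the background level in every culture, and that of PCOLCE exceeded it in the fibroblasts alone. The second COL1A1 probe set, also dim in every culture, read 2.9, 2.4 and 2.3, with a difference of -0.55 against -1.65. PLOD1 disagreed with itself, since its second probe set, also above the background level on all arrays, was at 6.9, 6.5 and 6.5, a difference of -0.40 against -1.75. Both PLOD2 probe sets placed the fibroblasts between the isolates. COL6A1 and COL12A1 each had only 1 probe set above the background level. Their other probe sets lay below the background level, with differences of -0.75 and 0 for COL6A1 and of -0.95 and -0.25 for COL12A1. COL11A1 had 7 probe sets. The brightest, the only one above the background level, gave -1.40, the next -1.35 and the other 5 between -0.70 and -0.10, with a mean over all of -0.66. The mean over probe sets was -0.92 for COL6A1, which was then no longer over 3-fold lower, and -1.07 for COL12A1.

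**Figure D4:**
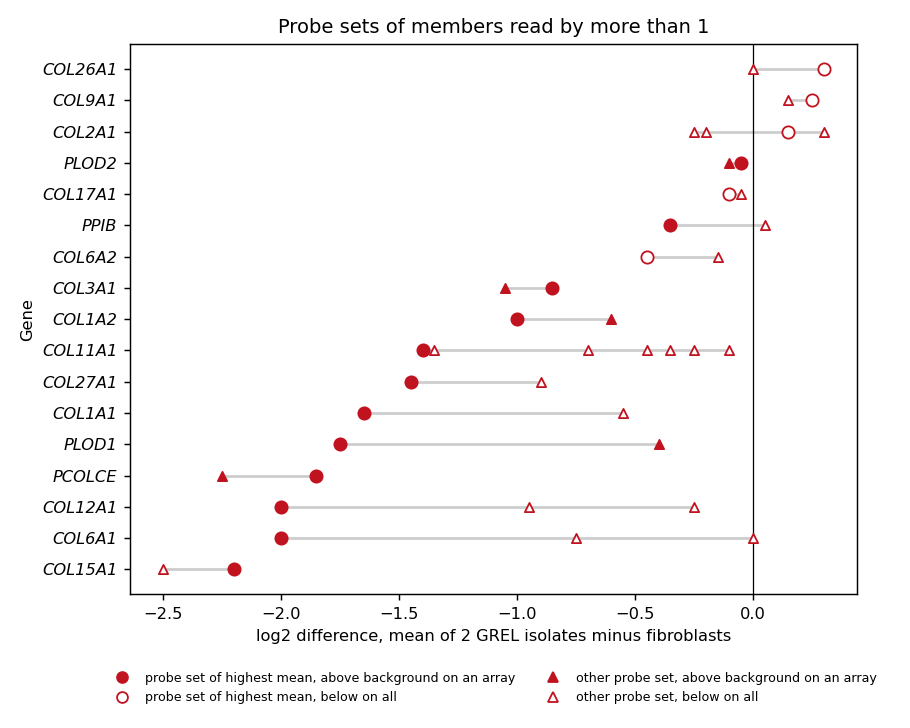
GREL minus fibroblast log2 difference (x axis, isolates averaged) of each probe set (symbols) of the 17 genes read by more than 1 (rows). Circles are the probe sets of highest mean, triangles the others, and filled symbols lie above the background level on at least 1 array. In PLOD1 the filled symbols lie apart (-1.75 and -0.40), in COL3A1 close together (-0.85 and -1.05).

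Other genes of collagen handling were taken from lists fixed by function. Beside the counts below, 33.5% of all named genes were lower in both isolates, 41.6% were higher in both and 2.38% were over 3-fold lower. No gene of these lists passed an adjusted p under 0.05 in limma over all probe sets. Of 23 further genes of folding and secretion in the endoplasmic reticulum, 11 were lower in both isolates, 6 were higher and 2 were over 3-fold lower. These were P3H2, another prolyl 3-hydroxylase, at 7.0, 4.5 and 4.6, and FKBP10, a proline isomerase and collagen chaperone, at 8.3, 6.7 and 6.4. P4HB, the partner of the P4HA subunits, named after its values were seen, read 10.7, 10 and 10.1. On the other side were KLHL12, which helps to build large secretory carriers, at 2.0, 2.4 and 2.6, and the general chaperone HSPA5, at 10, 10.3 and 10.4. KLHL12 stayed below the background level in every culture. The median difference of the list was -0.15, against 0.05 over all named genes.

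Of 6 further genes of extracellular processing and fibril assembly, 3 were lower in both isolates, 0 were higher and 1, tenascin X (TNXB), was over 3-fold lower, at 6.3, 4.5 and 3.6. Fibronectin (FN1), on which fibrils assemble, was at 11, 10.2 and 9.7. Of 4 collagen receptor genes, 2 were lower in both isolates and 2 higher. MRC2 (Endo180), which takes up collagen fragments, was at 7.8, 6.5 and 5.7, below the background level in isolate 2. The integrin chain ITGA10 was at 3.2, 2.2 and 1.9 and ITGA2 at 0.9, 1.7 and 1.5, both below that level in every culture. ITGB1, the shared beta chain, was at 10.3, 10.5 and 10.4.

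Of 12 genes of collagen breakdown measured, 8 were lower in both isolates, 3 were higher and 3 were over 3-fold lower, with a median log2 difference of -0.60. Cathepsin K (CTSK), a protease able to cut the intact helix, read 10.4, 7.7 and 6.9. MMP2, a gelatinase, was at 10.1, 8.0 and 7.7, and MMP1, the interstitial collagenase, at 5.3, 2.5 and 2.7, below the background level. In CTSK and MMP2 both isolates lay above that level and well apart from the fibroblasts. PREP, which cuts proline-containing peptides, was at 5.5, 5.9 and 5.7, above the background level in isolate 1 alone. Of 7 genes of proline and ascorbate supply, 2 were lower in both isolates, 2 were higher and 0 were over 3-fold apart. PYCR1, which makes proline, was at 6.6, 5.9 and 4.8, below the background level in isolate 2. ALDH18A1, the step before PYCR1, was at 8.3, 8.1 and 7.8. PRODH, which breaks proline down, was at 2.3, 2.7 and 2.7, and PRODH2 at 2.8, 2.9 and 2.9. Both stayed below the background level in every culture.

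**Figure D5:**
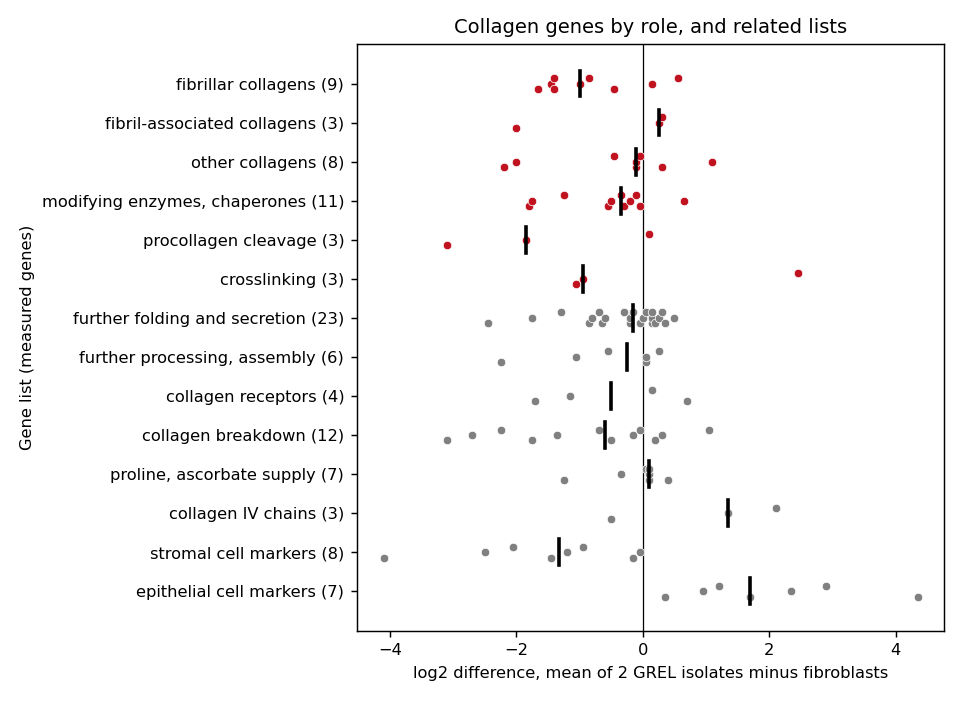
GREL minus fibroblast log2 difference (x axis, isolates averaged) of each measured gene (points) of the 37 genes by role (red) and of related lists and markers (grey), with gene numbers in brackets. Vertical bars are medians, which come to -1.0 for the fibrillar collagens, -0.35 for the modifying enzymes and chaperones, -0.60 for collagen breakdown and 1.35 for the 3 collagen IV chains. The collagen IV median is the value of COL4A1. COL4A4 and COL4A3 lay below the background level in every culture, and COL4A3 was lower in the isolates.

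Above the background level lay 22 of the 37 genes in the fibroblasts, 21 in isolate 1 and 20 in isolate 2, and 19 on all 3 arrays. Of all 9155 named genes, 2323 lay above it in the fibroblasts, 3261 in isolate 1, 3117 in isolate 2 and 2115 on all 3 arrays. The level was 6.1 in the fibroblasts, 5.55 in isolate 1 and 5.75 in isolate 2, and these counts depend on it. Of the 37 genes, the 14 below the level on every array had values from 1.1 to 4.8, and P4HA3 had the largest difference among them. Their probe sets do not show whether these genes were expressed. Every one of the 37 genes was found by identifier in the current bovine gene table, and 0 symbols differed.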

How the data were processed

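RNA of 2 GREL isolates and 1 fibroblast culture was measured on 3 arrays. Deposited values are log2, and the authors' pipeline was RMA with quantile normalization; the submitters' processing notes name Partek 6.5. Detection calls are not part of the table, the genome build is not given in the sources used here, and 0 columns of samples stayed unused. The table has 24128 probe sets, of which 24016 were tested after removal of 112 controls. The platform annotation, of an older date, gave 1 symbol to 13292, several to 86 and none to 10638. Groups were compared with limma 3.58.1 (R 4.3.3, lmFit and eBayes, 1 residual degree of freedom, Benjamini-Hochberg adjustment over all probe sets, adjusted p under 0.05), after a check on simulated data. That the isolates came from separate fetuses is stated by the study, and p-values measure the spread between these 2 cultures only. In 3513 probe sets the isolates have the same rounded value. Counts over 3-fold require both isolates. Tables and plots were made in Python 3.11.15 (pandas 2.3.3, matplotlib 3.10.9). The genes, lists and tests were chosen with earlier results of these data known. By rule, values are given for genes over 3-fold apart, collagen I, III, V and VI chains, up to 4 genes per role with the largest difference in the isolate nearer the fibroblasts, and by the same measure up to 2 per direction of each related list. Other settings were an intensity trend, a robust prior, a fit without identical isolates, the methods' test, dim probe sets left out, 1 probe set or the mean per gene, centred or again quantile normalized arrays, other fold thresholds and background percentiles, and leaving out an isolate. Allowing for rounding was added after seeing the data. Array number limits the precision.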

Additional observations from a re-analysis of the deposited data

How the results depend on the processing

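No paired analysis was possible, because the study took the isolates from 2 fetuses and the single fibroblast culture from an adult animal. The count over 3-fold higher was 1 under every setting run. The count over 3-fold lower, 5, was 9 at a 2-fold and 1 at a 4-fold threshold, and ranged from 5 without isolate 2 to 9 without isolate 1. It lay between 4 and 6 with arrays centred or quantile normalized again, with the mean over probe sets, with dim genes left out, and with 0.1 allowed for rounding in either direction, a choice made after seeing the data. The median difference, -0.45, was -1.05 over genes above the background level on at least 1 array, a choice that favours genes high in 1 group, and between -0.40 and -0.50 without either isolate or with other scalings. Limma called 0 of the 37 genes as reported, 15 without probe sets of identical isolates and 2 with a robust prior, and 0 in the other fits. Over all probe sets limma called 0 as reported, 1476 higher and 1252 lower without identical isolates, and 571 higher and 618 lower with a robust prior. At an unadjusted p under 0.05 limma had 2354 higher and 2666 lower, and the methods' test 186 and 208. That balance was 1651 higher and 2584 lower with centred arrays, and turned to 835 higher and 437 lower among probe sets above the background level on at least 1 array. None of the 25 genes named by rule changed direction under the other scalings or with the mean over probe sets. Centring could not have changed one, since it moves each difference by -0.05 and the smallest, of ADAMTS2, is 0.1. Genes with 1 probe set keep their value in the mean over probe sets. Centring the arrays moved the median of all differences by -0.05 and normalizing again by 0.05. With the 95th percentile as background level, 7 genes in place of 19 lay above it on all arrays. Without detection calls, differences of dim genes are uncertain in size.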
